A study of Homo sapiens with 30 samples.

Results

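The genes described here are 32 members of the integrated stress response, the ATF4 programme, in human prostate cancer cell lines. They were taken by name, as the rows whose gene symbol equals a member in all 4 deposited count tables, and make up 32 of the 57773 genes counted. The list was chosen with earlier results of these data known, so counts of members set beside shares of all genes are descriptive only. In this response, kinases that sense amino acid shortage, misfolded protein, double-stranded RNA or haem shortage phosphorylate the translation factor eIF2, which lowers protein synthesis in general while translation of the mRNA of the transcription factor ATF4 goes up. ATF4 then drives genes for amino acid synthesis and uptake, for charging and export of tRNA, and for feedback that ends the response. Prostate cancer cells are known to use this pathway to match amino acid supply to growth. The tables hold mRNA, so translation of ATF4 and the phosphorylation of eIF2 were not measured.

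The members were grouped by role. The transcription factors are ATF4, ATF3, ATF5, DDIT3 (CHOP), CEBPB, CEBPG, JDP2 and NUPR1. The feedback and stress effectors are PPP1R15A (GADD34), which brings a phosphatase to eIF2, the pseudokinase TRIB3, the mTORC1 restraints DDIT4 and SESN2, the translation inhibitor EIF4EBP1, the glutathione-degrading enzyme CHAC1, the secreted glycoprotein STC2 and the lipoprotein receptor VLDLR. The serine, glycine and folate enzymes are PHGDH, PSAT1 and PSPH of serine synthesis and the mitochondrial SHMT2, MTHFD2, MTHFD1L and ALDH1L2. The other amino acid enzymes are ASNS (asparagine), ALDH18A1 and PYCR1 (proline), CTH and CBS (cysteine) and GPT2 (alanine). SLC7A1 carries cationic amino acids, SLC6A9 carries glycine, and XPOT exports tRNA from the nucleus.

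The DHT experiment used C4-2-tet-shRB cells, a castration-resistant line in which doxycycline induces a short hairpin RNA that targets RB1, the retinoblastoma protein that restrains E2F factors. They had 10 nM dihydrotestosterone (DHT), a potent androgen, for 24 h, or vehicle, each after 0, 3 or 30 days of doxycycline at 0.05 µg/ml, in RPMI medium with 8% charcoal-stripped serum (CSS) and 2% regular serum (FBS). Each of these 6 conditions is 1 library read in 2 lanes. In a second experiment the same line had 3 days of doxycycline (0.05 µg/ml) and 10 µM GSK2879552, which inhibits LSD1, a histone demethylase, for 24 h; doxycycline and DMSO; GSK2879552 alone; or DMSO alone, with 2 libraries each, in RPMI medium with 5% CSS. All C4-2 groups carry the hairpin construct, and no doxycycline-treated cells with a control hairpin were analysed here, so RB1 depletion, doxycycline and hairpin induction cannot be told apart. VCaP cells had 20 nM siRNA against RB1 or non-target control siRNA for 2 days, with 3 libraries each, in DMEM with 10% FBS per the labels, although the names of these libraries refer to CSS. LNCaP cells had 1 µM GSK2879552 for 2 days or vehicle in RPMI medium with 5% CSS, with 1 library each, read in 2 lanes. The DHT and LNCaP libraries were made with a total RNA kit and the others with an mRNA kit, both stranded. Nothing states that replicates came from separate cultures, so the p-values reflect no more than the spread of these libraries, which may be technical.

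The libraries held 14898454 to 16856486 counted reads in the DHT experiment, 14515932 to 22326960 in the C4-2 experiment with GSK2879552, 6218938 to 7107036 with RB1 siRNA and 4311455 to 4551211 with control siRNA in VCaP, and 13085157 with GSK2879552 and 14036346 with vehicle in LNCaP. RB1 followed the labels in the 3 tables where it was targeted. It stood at 5.35, 6.74 and 7.41 CPM (counts scaled to the size of the library) with RB1 siRNA in VCaP, against 56.5, 60.0 and 63.9 CPM with control siRNA. In C4-2 with GSK2879552 it stood at 5.84 and 6.74 CPM with doxycycline, against 32.7 and 22.1 CPM without, and with DMSO at 4.64 and 6.24 CPM with doxycycline, against 23.4 and 26.1 CPM without. In the DHT experiment, after 0, 3 and 30 days, it stood at 51.1, 10.0 and 6.25 CPM with DHT, against 48.1, 7.82 and 6.27 CPM with vehicle. The prostate luminal markers KRT8, KRT18, HOXB13, FOLH1, KLK2 and KLK3 were present in all libraries, at 12.9 CPM or more, and ERG was at 274 to 328 CPM in VCaP and at 0.218 CPM or less elsewhere. Of markers of other cell types, PTPRC, CD3E, DCN and COL1A2 were at 0.966 CPM or less and LYZ at 2.36 CPM or less, whereas COL1A1 reached 50.8, VWF 23 and LUM 9.06 CPM. CPM values were scaled within each table and are not set against each other across tables, and in bulk RNA fewer cells of a kind and less RNA per cell cannot be told apart.

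Because the members are read as 1 programme, the promoters of 4 of them are shown with the C/EBP-ATF response element, the composite site at which ATF4 pairs with a C/EBP protein. The windows come from the RefSeq promoter table of build GRCh38.p14, not the hg19 build of the counts, and run from 250 bases before to 50 bases after an annotated start. They are ASNS at chr7:97872359-97872658 (minus strand), CHAC1 at chr15:40953221-40953520 (plus strand), CEBPG at chr19:33373863-33374162 (plus strand) and ATF3 at chr1:212565157-212565456 (plus strand). Each is read in the direction of its gene, and the capitals mark TGATGNAA or its reverse complement.
ASNS: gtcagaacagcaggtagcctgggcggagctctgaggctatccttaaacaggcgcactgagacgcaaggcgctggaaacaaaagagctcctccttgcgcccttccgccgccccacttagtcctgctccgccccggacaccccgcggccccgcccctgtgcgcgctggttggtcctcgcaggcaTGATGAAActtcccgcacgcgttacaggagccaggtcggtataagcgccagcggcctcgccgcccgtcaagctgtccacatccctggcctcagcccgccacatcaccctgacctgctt
CHAC1: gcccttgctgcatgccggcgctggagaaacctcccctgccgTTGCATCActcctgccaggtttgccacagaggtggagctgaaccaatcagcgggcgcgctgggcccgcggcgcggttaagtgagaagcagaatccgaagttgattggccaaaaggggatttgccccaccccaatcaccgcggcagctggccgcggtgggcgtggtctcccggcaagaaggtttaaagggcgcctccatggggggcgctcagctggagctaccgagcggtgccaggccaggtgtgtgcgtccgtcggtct
CEBPG: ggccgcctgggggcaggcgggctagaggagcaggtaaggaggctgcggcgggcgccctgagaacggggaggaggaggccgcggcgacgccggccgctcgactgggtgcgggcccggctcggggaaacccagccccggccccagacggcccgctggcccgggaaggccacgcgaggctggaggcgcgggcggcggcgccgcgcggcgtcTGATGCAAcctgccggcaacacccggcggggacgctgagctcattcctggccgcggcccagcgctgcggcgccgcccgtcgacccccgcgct
ATF3: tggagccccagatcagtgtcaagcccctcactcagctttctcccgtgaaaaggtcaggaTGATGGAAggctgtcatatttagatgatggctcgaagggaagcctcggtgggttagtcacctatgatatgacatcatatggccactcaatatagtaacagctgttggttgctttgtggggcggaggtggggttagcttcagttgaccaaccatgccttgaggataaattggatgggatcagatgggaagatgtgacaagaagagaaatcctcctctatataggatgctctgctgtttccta
The first base of the match lies 68 bases before the start in ASNS, 209 before it on the opposite strand in CHAC1, 42 before it in CEBPG and 191 before it in ATF3. The letters TGATGNAA, searched on both strands, were found in a window of 7 of the 25 members with an entry (28%): ATF3, CEBPG, JDP2, CHAC1, MTHFD1L, ASNS and SLC7A1. Among all genes of the table the share was 1217 of 27305 (4.46%). A gene with several annotated starts counts if any window matches. By window the shares were 9 of 42 for the members (21.4%) and 3.62% of all 35116 windows. ATF3, CEBPG and ASNS each have another annotated start, not shown, whose window held no match. The ER stress element, searched by name on both strands, was in 0 of the 25 members and in 25 genes (0.0916%), and the E2F motif GCGGGAA was in 3 of the 25 members (12%), against 7.82% of genes. The matches of the E2F motif and of TGATGNAA were counted separately, whether or not they overlap. A match describes the letters only.

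**Figure D1:**
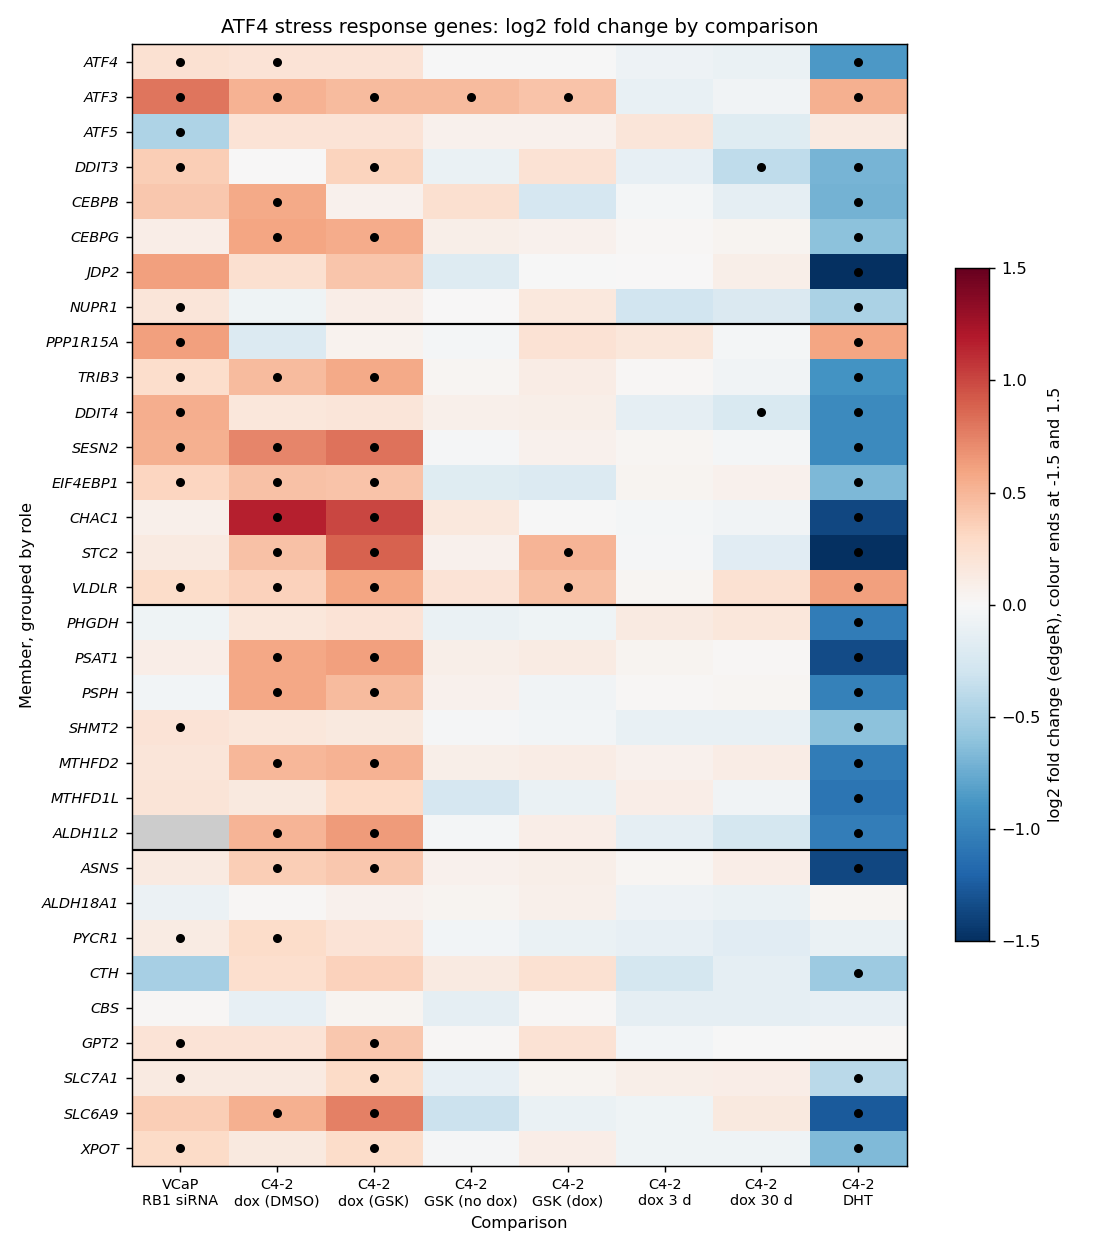
Log2 fold changes of the 32 members in 8 comparisons, as edgeR gave them (colour, ending at -1.5 and 1.5), with genes grouped by role from top to bottom; a dot marks an adjusted p under 0.05 and grey a gene not tested. The column for DHT is mostly blue, with 24 members lower and 3 higher, the columns for RB1 siRNA and for doxycycline with DMSO or GSK2879552 are mostly red, and those for doxycycline in the DHT experiment hold 2 dots in all.

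Of the comparisons made, that of DHT with vehicle called the most members. With DHT, 24 of the 32 members fell and 3 rose (edgeR's quasi-likelihood test, additive model over the 6 libraries), and the members' median log2 change was -0.71, against -0.02 over all genes tested. DHT moved much of the transcriptome, so 23.9% of the 16504 genes tested were called lower and 25.1% higher (49% in all), and a single call says little here. The members that fell did so by 1.32-fold to 2.87-fold. The reads on the 32 members made up 0.366% to 0.38% of all counted reads with DHT, against 0.678% to 0.685% with vehicle. The model leaves 2 residual degrees of freedom and assumes 1 DHT response for every doxycycline level.

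Among the transcription factors 6 of 8 fell and 1 rose. ATF4 itself stood at 325, 282 and 291 CPM with DHT after 0, 3 and 30 days of doxycycline, against 544, 558 and 526 CPM with vehicle. All 3 DHT libraries were below all 3 vehicle libraries, and the log2 change was -0.86 ± 0.06 (SE, adjusted p = 2.03e-12). DDIT3, the pro-apoptotic factor CHOP, was at 21.8, 19.4 and 15.6 CPM with DHT, against 33.3, 31.4 and 27.0 CPM with vehicle (log2 -0.70 ± 0.08). JDP2, a repressor of AP-1, had the largest fall of this group (log2 -1.51 ± 0.11). CEBPB, CEBPG and NUPR1 fell by 0.71, 0.61 and 0.47 on the log2 scale. ATF3, a stress-induced repressor of the same family, went the other way, with 73.5, 66.4 and 66.6 CPM with DHT, against 47.8, 45.7 and 49.3 CPM with vehicle (log2 0.53 ± 0.06, adjusted p = 9.67e-08). ATF5 was not called (log2 0.13 ± 0.09, adjusted p = 0.24).

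Of the 8 feedback and stress effectors 6 fell and 2 rose. STC2 was at 55.0, 57.1 and 53.2 CPM with DHT, against 170, 162 and 142 CPM with vehicle, the smallest p of the programme (log2 -1.52 ± 0.06, adjusted p = 1.01e-16). CHAC1 was at 13.7, 12.5 and 11.7 CPM with DHT, against 31.7, 32.2 and 32.7 CPM with vehicle (log2 -1.36 ± 0.09), and TRIB3 was at 156, 152 and 143 CPM, against 273, 286 and 278 CPM (log2 -0.90 ± 0.05). In both genes the groups were far apart beside the spread within them. DDIT4, SESN2 and EIF4EBP1 fell by 0.95, 0.95 and 0.67 on the log2 scale. The 2 effectors that rose were VLDLR, at 27.1, 29.1 and 33.1 CPM with DHT against 18.8, 18.1 and 21.1 CPM with vehicle (log2 0.62 ± 0.08, adjusted p = 3.3e-07), and PPP1R15A, at 6.04, 7.53 and 5.56 CPM against 4.13, 4.13 and 4.35 CPM (log2 0.59 ± 0.16, adjusted p = 0.00284). PPP1R15A had few counts and was not called by DESeq2 or without either library of day 3.

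All 7 serine, glycine and folate enzymes fell, with a median log2 change of -1.05. PSAT1 was at 190, 200 and 191 CPM with DHT, against 482, 488 and 494 CPM with vehicle (log2 -1.34 ± 0.05, adjusted p = 1.14e-16), and PHGDH, the first enzyme of the pathway, was at 260, 298 and 318 CPM, against 587, 612 and 608 CPM (log2 -1.05 ± 0.06). PSPH fell by 1.01 on the log2 scale, so each of the enzymes of serine synthesis was lower. The folate enzyme MTHFD2 was at 143, 157 and 158 CPM with DHT, against 309, 311 and 325 CPM with vehicle (log2 -1.05 ± 0.05, adjusted p = 1.81e-14). MTHFD1L, ALDH1L2 and SHMT2 fell by 1.10, 1.04 and 0.62 on the log2 scale. PSAT1, PSPH, MTHFD2, ASNS, ATF4 and XPOT have pseudogenes that also held counts, and how reads with several alignments were assigned is not stated.

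The other amino acid enzymes were split. ASNS, which makes asparagine, was at 166, 160 and 160 CPM with DHT, against 386, 414 and 452 CPM with vehicle (log2 -1.36 ± 0.06, adjusted p = 3.99e-16), and CTH fell by 0.55. ALDH18A1, PYCR1, CBS and GPT2, which act in proline, cysteine and alanine metabolism, were not called, at log2 0.03, -0.10, -0.12 and 0.02. All 3 transport genes fell, the glycine carrier SLC6A9 (log2 -1.26), XPOT (log2 -0.66) and SLC7A1 (log2 -0.40).

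**Figure D2:**
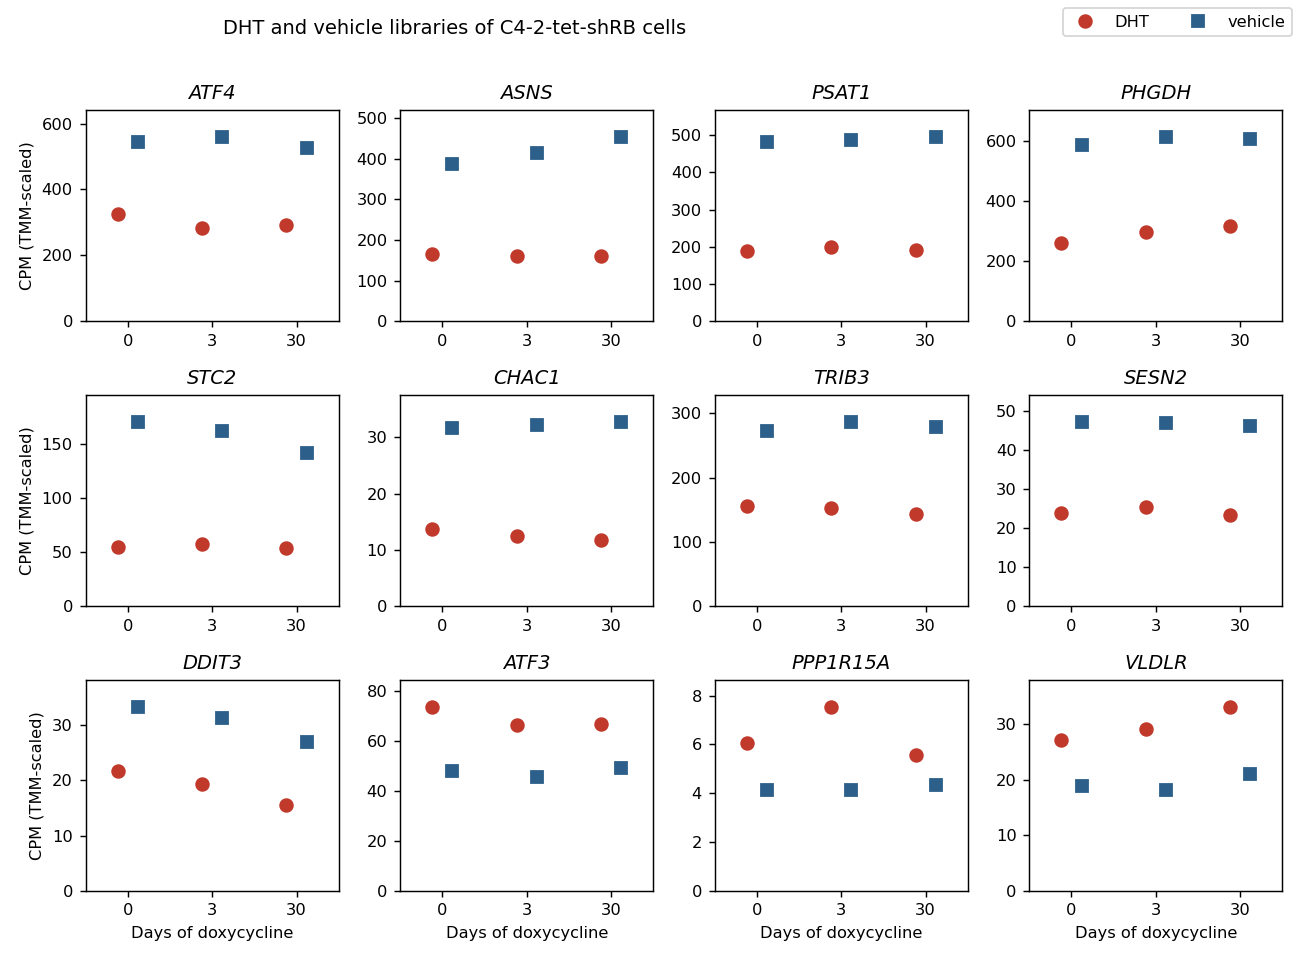
TMM-scaled CPM (vertical axis, from 0) of 12 members against days of doxycycline (0, 3 and 30), 1 library per point, with DHT as circles left of vehicle as squares. ATF4, ASNS, PSAT1, PHGDH, STC2, CHAC1, TRIB3, SESN2 and DDIT3 are lower with DHT at each level, and ATF3, PPP1R15A and VLDLR are higher.

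The 3 DHT libraries did not overlap the 3 vehicle libraries in 27 members, 24 of them lower and 3 higher, against 26.2% and 27% of all genes tested, and 5 members overlapped. Taken at each doxycycline level, 1 library against 1 with no replicate check, members at least 2-fold lower with DHT numbered 10, 10 and 9 at 0, 3 and 30 days, with 0 at least 2-fold higher. The matching shares of all genes with 100 counts or more over both libraries were 3.83%, 1.81% and 1.83% lower, and 3.98%, 3.37% and 3.31% higher. The members' median log2 ratio was -0.64, -0.73 and -0.76 at the 3 levels, and that of all such genes was 0.02, 0 and 0.02. ASNS, for example, had a DHT over vehicle ratio of 0.43 (95% Clopper-Pearson interval 0.409 to 0.451) without doxycycline, 0.387 (0.369 to 0.406) after 3 days and 0.355 (0.339 to 0.372) after 30 days, with RB1 as low as given above. These intervals cover counting error only.

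The lists of neighbouring pathways did not all move the same way with DHT. Of 17 tested ATF4 targets outside the member list 8 fell, led by the cystine and leucine transporters SLC7A11 (log2 -1.36 ± 0.05) and SLC7A5 (log2 -1.37 ± 0.05), and 8 rose, led by the growth factor GDF15 (log2 1.41 ± 0.06) and the transporter SLC43A1 (log2 1.14 ± 0.05). Of 20 cytosolic aminoacyl-tRNA synthetases 11 fell, among them GARS (log2 -0.74 ± 0.06), and 3 rose. Of 18 chaperone and unfolded protein genes of the endoplasmic reticulum 16 rose and 1 fell, with a median of 0.41; DNAJB9 (log2 1.33 ± 0.07) and DNAJC3 (log2 0.92 ± 0.05) led them, and XBP1 fell by 0.22. EIF2AK3, the kinase PERK that links that compartment to eIF2, rose by 0.75 ± 0.06. Of 18 E2F-driven G1/S genes 17 fell and 0 rose, with a median of -0.69, a value close to that of the members; whether the fall of the members is tied to that of cell cycle genes was not tested.

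Members rose with doxycycline in the C4-2 experiment with GSK2879552. In cells given DMSO, 17 of 32 members rose and 0 fell after 3 days of doxycycline, against 4.25% of 18423 genes tested called higher and 3.59% called lower (7.84% in all), and the median was 0.26 for the members and 0 for all genes. The rises ran from 1.16-fold to 2.24-fold. The count was 10 without doxycycline DMSO replicate 1 and 11 without DMSO replicate 2, and 22 at most when any other library was left out. Libraries of the groups did not overlap in 30 members, with 28 higher and 2 lower, but that also held for 28.2% and 28.7% of all genes with 2 libraries a group.

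CHAC1 changed most. It was at 31.2 and 30.8 CPM with doxycycline and DMSO, against 13.9 and 13.7 CPM with DMSO alone (log2 1.17 ± 0.12, adjusted p = 1.95e-05). Among the other effectors SESN2 was at 63.8 and 59.8 CPM, against 39.3 and 35.5 CPM (log2 0.73 ± 0.09, adjusted p = 0.000108), and TRIB3 was at 152 and 146 CPM, against 106 and 107 CPM (log2 0.48 ± 0.08, adjusted p = 0.00107). In each case the difference exceeded the gap between replicates in every gene named. STC2, EIF4EBP1 and VLDLR rose by 0.44, 0.44 and 0.34 on the log2 scale, which makes 6 of 8 effectors. DDIT4 (log2 0.17) and PPP1R15A (log2 -0.20) were not called.

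Of the transcription factors 4 of 8 rose. CEBPG, a partner of ATF4 on DNA, was at 93.2 and 93.3 CPM with doxycycline and DMSO, against 59.7 and 63.9 CPM with DMSO alone (log2 0.59 ± 0.08, adjusted p = 2e-04). CEBPB (log2 0.57 ± 0.13), ATF3 (log2 0.52 ± 0.09) and ATF4 also rose. ATF4 was at 614 and 597 CPM, against 538 and 508 CPM, a small change close to the limit (log2 0.21 ± 0.06, adjusted p = 0.0451), and it was not called in 7 of 13 alternative fits, among them those without any 1 library of these groups (adjusted p up to 0.34). DDIT3 stood at 51.9 and 51.4 CPM with doxycycline and DMSO, against 52.9 and 50 CPM with DMSO alone, and its groups overlapped (log2 0.01 ± 0.09, adjusted p = 0.978).

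Of the serine, glycine and folate enzymes 4 of 7 rose. PSAT1 was at 279 and 284 CPM with doxycycline and DMSO, against 189 and 187 CPM with DMSO alone (log2 0.58 ± 0.06, adjusted p = 3.59e-05). PSPH, MTHFD2 and ALDH1L2 rose by 0.58, 0.50 and 0.51 on the log2 scale, whereas PHGDH was not called (log2 0.17 ± 0.06, adjusted p = 0.126). ASNS was at 276 and 267 CPM, against 211 and 208 CPM (log2 0.37 ± 0.06, adjusted p = 0.00142). It was not called without doxycycline DMSO replicate 1 (adjusted p = 0.0532). PYCR1 (log2 0.27) and SLC6A9 (log2 0.53) completed the 17.

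With GSK2879552 present doxycycline was compared in libraries that the comparison in DMSO did not use. Here 18 of 32 members rose and 0 fell, against 4.52% and 3.2% of genes tested (7.72% in all), with a median of 0.37 for the members and 0.01 for all genes. STC2 led, at 407 and 400 CPM with doxycycline and GSK2879552, against 217 and 222 CPM with GSK2879552 alone (log2 0.88 ± 0.06, adjusted p = 1.76e-07). CHAC1 was at 32.1 and 29.5 CPM, against 13.5 and 17.7 CPM (log2 1.00 ± 0.12, adjusted p = 6.9e-05), and PSAT1 was at 300 and 310 CPM, against 208 and 192 CPM (log2 0.61 ± 0.06, adjusted p = 2.4e-05). SESN2 was at 67.0 and 62.4 CPM, against 35 and 39.1 CPM (log2 0.81 ± 0.09, adjusted p = 3.88e-05). These 4 genes did not overlap between groups, nor did 27 of the 32 members, against 24.8% of all genes. The calls shared with the comparison in DMSO were 14, which is 82.4% of its 17 and 77.8% of the 18 here. Both comparisons come from the same fit, and the matching overlap among all genes is not given, so no conclusion is drawn from this share. ATF4 just missed the limit (log2 0.21 ± 0.06, adjusted p = 0.0513), at 618 and 581 CPM with doxycycline and GSK2879552, against 499 and 540 CPM with GSK2879552 alone. DDIT3, at 63.7 and 56.8 CPM against 45.9 and 50.6 CPM, was called (log2 0.33 ± 0.08, adjusted p = 0.025), but not in 8 of 14 alternative fits (adjusted p up to 0.272).

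**Figure D3:**
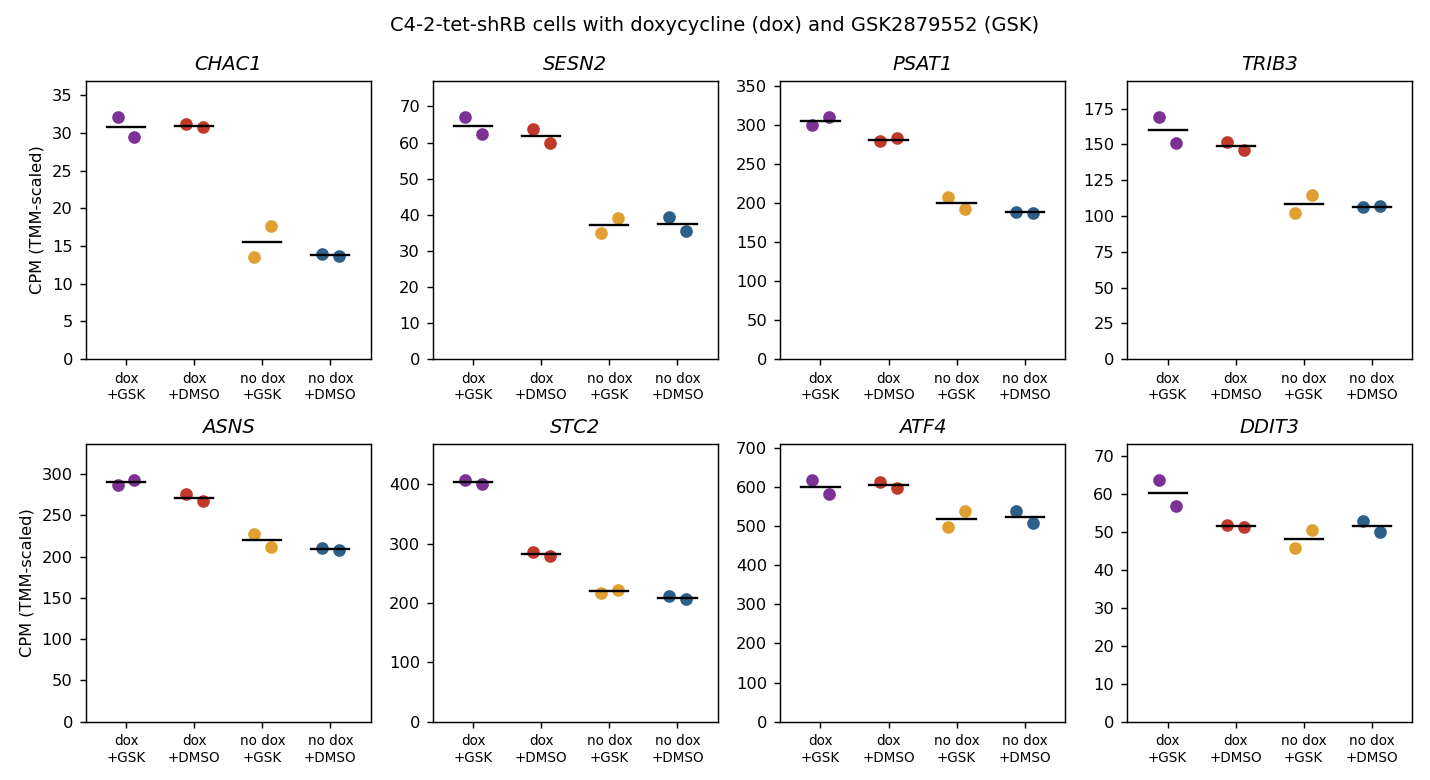
TMM-scaled CPM (vertical axis, from 0) of 8 members in the C4-2 experiment with GSK2879552, with 2 libraries per group as points and their mean as a line. CHAC1, SESN2, PSAT1, TRIB3, ASNS and STC2 are higher in both groups with doxycycline than in both groups without; DDIT3 is at 63.7 and 56.8 CPM with doxycycline and GSK2879552 and at 45.9 to 52.9 CPM in the other groups.

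Related lists in cells given doxycycline and DMSO showed where the rise reached. Of 17 tested ATF4 targets outside the member list 9 rose and 2 fell, KLHL24 and TXNIP. Among those that rose, the amino acid carriers SLC1A4 (log2 0.94 ± 0.08) and SLC1A5 (log2 0.63 ± 0.07) had the smallest p, and SLC7A11 rose by 0.65 ± 0.09. Of the E2F-driven G1/S genes 12 of 18 rose and 0 fell, with a median of 0.40. Chaperone and unfolded protein genes were divided, with 2 of 18 higher and 2 lower, and HSPA5, the chaperone BiP, fell by 0.51. Of 15 p53 targets 4 rose, with CDKN1A at log2 0.75 ± 0.07. Of 13 eIF2 kinases and core factors 0 rose and 1 fell, EIF2B2 (log2 -0.66 ± 0.09), a subunit of the exchange factor of eIF2. The share of counts on mitochondrial genes was higher with doxycycline in cells given DMSO, at 4.4% and 4.41%, against 2.72% and 3.58% with DMSO alone. It was 3.99% and 4.14% with doxycycline and GSK2879552, against 4.61% and 4.05% with GSK2879552 alone, with overlap. Its part in the changes of the members was not tested.

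In the DHT experiment no rise of the programme with doxycycline was detected. After 3 days edgeR called 0 members in either direction, with 0.254% and 0.188% of genes tested called higher and lower. Before adjustment of p, at a limit of 0.05, there were 0 higher and 4 lower (NUPR1, DDIT4, CTH and CBS), and DESeq2 called 0. CHAC1 was at 12.5 CPM with DHT and 32.2 CPM with vehicle after 3 days, against 13.7 and 31.7 CPM without doxycycline (log2 -0.03 ± 0.10), and PSAT1 was at 200 and 488 CPM, against 190 and 482 CPM (log2 0.04 ± 0.06). SESN2 (log2 0.03 ± 0.08), TRIB3 (log2 0.02 ± 0.07), ASNS (log2 0.03 ± 0.07) and ATF4 (log2 -0.08 ± 0.07) were as flat. After 30 days 0 members were called higher and 2 lower, DDIT3 (log2 -0.38 ± 0.10, adjusted p = 0.0257) and DDIT4 (log2 -0.23 ± 0.07, adjusted p = 0.0467), against 2.51% and 1.55% of genes. DESeq2 called 0 at 30 days, with 98 of 7545 genes called higher and 67 lower. When single libraries were left out, the number of members called changed in both directions, as did the calls over all genes. The members' median at 30 days was -0.09 to -0.01 in these fits. Between 30 and 3 days edgeR called 0 members (0.248% and 0.0727% of genes; before adjustment, 2 had a p under 0.05 and were higher, and 3 were lower).

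E2F-driven G1/S genes rose after 3 days in this experiment as well, 10 of 18 with 0 lower and a median of 0.35. The difference between the C4-2 experiments was therefore tested on its own in a joint fit of 14 libraries, as the effect of 3 days of doxycycline with DMSO minus its effect in the DHT experiment. It was called positive in 11 members and called negative in 0 (edgeR, adjusted p under 0.05), against 0.672% and 0.378% of 19059 genes (1.05% in all), with a median of 0.34 for the members and 0 for all genes. CHAC1 (1.21 ± 0.16, adjusted p = 0.00011) and PSAT1 (0.55 ± 0.09, adjusted p = 0.00135) had the smallest p, and both kept their call in every alternative fit. SESN2 (0.70), ATF3 (0.63), CEBPG (0.58), TRIB3 (0.48) and STC2 (0.46) were among the others, and ASNS was not (0.36 ± 0.10, adjusted p = 0.0802). For the E2F-driven genes 0 of 18 differed, with a median of 0.02. The experiments differ in serum, RNA kit, replication and in averaging over DHT, and the first 2 of these cannot be told apart from the experiment.

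When single libraries were left out, the members' median difference stayed at 0.29 to 0.39, while the count of 11 changed. It was 18 without either library given GSK2879552 alone, the pair that differed most within a group. It was 4 without the 3-day vehicle library, 5 without the 3-day DHT library, the day 0 DHT library or doxycycline DMSO replicate 2, 6 without doxycycline DMSO replicate 1 or DMSO replicate 1, and 7 without DMSO replicate 2. No member was called lower in any of these fits. Calls of higher genes over all genes tested rose and fell along with the count.

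Part of the programme also rose with RB1 siRNA in VCaP cells. Of 31 members tested, 15 rose and 1 fell, against 2.96% and 2.65% of 14066 genes (5.62% in all), with a median of 0.19 for the members and 0 for all genes. The rises ran from 1.09-fold to 1.74-fold. Libraries of the groups did not overlap in 21 members that were higher and 1 that was lower, against 10.7% and 10.6% of all genes tested. ALDH1L2 was too low to be tested, at 1.29 to 2.95 CPM with RB1 siRNA and 0.697 to 1.6 CPM with control siRNA. DESeq2 called 6 members higher (ATF4, PPP1R15A, EIF4EBP1, VLDLR, SHMT2 and XPOT), so the calls on small changes depend on the test. Leaving out any library gave 10 to 14. Over all genes DESeq2 called 171 of 7794 higher, and leaving out 1 library gave 260 to 431. The replicates differed by little more than counting error, and the RB1 siRNA libraries were deeper than the control ones. The share of counts on mitochondrial genes was 2.09% to 2.21% with RB1 siRNA, against 2.44% to 2.58% with control siRNA, and the part of depth and of this share in the result was not tested.

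Of the feedback and stress effectors 6 of 8 were higher. PPP1R15A was at 64.7, 66.0 and 65.1 CPM with RB1 siRNA, against 43.2, 44.4 and 40.4 CPM with control siRNA (log2 0.61 ± 0.07, adjusted p = 1.23e-09). DDIT4 (log2 0.55 ± 0.12), SESN2 (log2 0.53 ± 0.15), EIF4EBP1 (log2 0.32 ± 0.07), VLDLR (log2 0.27 ± 0.07) and TRIB3 (log2 0.26 ± 0.07) rose too. TRIB3 was at 84.6, 74.1 and 83.3 CPM with RB1 siRNA, against 65.6, 65.8 and 70.5 CPM with control siRNA, and the groups did not overlap. Its call was lost without control siRNA replicate 1 or 2 (adjusted p up to 0.061), and that of SESN2 when control siRNA replicate 2 or 3, or the first RB1 siRNA library, was left out (up to 0.226). CHAC1 was at 4.36, 4.23 and 3.87 CPM, against 3.89, 3.49 and 4.42 CPM, with overlapping groups and no call (log2 0.08 ± 0.26, adjusted p = 0.914).

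Of the transcription factors 4 of 8 rose and 1 fell. ATF4 was at 358, 369 and 346 CPM with RB1 siRNA, against 319, 291 and 307 CPM with control siRNA (log2 0.23 ± 0.04, adjusted p = 3.81e-06), and the call held in all 10 alternative fits. DDIT3 was at 38.0, 42.9 and 39.8 CPM, against 30.4, 29.7 and 32.9 CPM (log2 0.37 ± 0.09, adjusted p = 0.00435; 0.0519 without RB1 siRNA replicate 2), and ATF3 and NUPR1 rose by 0.80 and 0.18 on the log2 scale. ATF5, a factor related to ATF4, was the only member that fell in VCaP, at 57.5, 53 and 53.6 CPM with RB1 siRNA, against 77.1, 75.5 and 73.8 CPM with control siRNA (log2 -0.46 ± 0.07, adjusted p = 2.59e-07).

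Amino acid enzymes changed little in VCaP. SHMT2 was the only called enzyme of 6 tested serine, glycine and folate genes, at 276, 260 and 267 CPM with RB1 siRNA, against 230, 246 and 222 CPM with control siRNA (log2 0.20 ± 0.04, adjusted p = 0.000177). PSAT1 was at 99.1, 94.5 and 92.9 CPM, against 91.7, 88.8 and 87.9 CPM, without a call (log2 0.10 ± 0.06, adjusted p = 0.395). ASNS was at 102, 98.1 and 102 CPM, against 95.6, 94.6 and 86.2 CPM, likewise without a call (log2 0.13 ± 0.06, adjusted p = 0.188). In these 2 genes the groups were apart by less than the test required. PYCR1 (log2 0.12) and GPT2 (log2 0.21) passed narrowly, and leaving out most single libraries ended both calls (adjusted p up to 0.274 and 0.234). Of the transport genes XPOT was at 169, 170 and 182 CPM with RB1 siRNA, against 133, 144 and 148 CPM with control siRNA (log2 0.29 ± 0.05, adjusted p = 2.57e-06), and SLC7A1 rose by 0.14. Of 17 tested ATF4 targets outside the list 9 rose and 0 fell. VEGFA (log2 0.55 ± 0.06) and SLC3A2 (log2 0.42 ± 0.05) had the smallest p, and GDF15 (log2 1.19 ± 0.16) and SLC7A11 (log2 0.65 ± 0.12) rose more. Of 18 E2F-driven genes 11 rose and 0 fell.

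**Figure D4:**
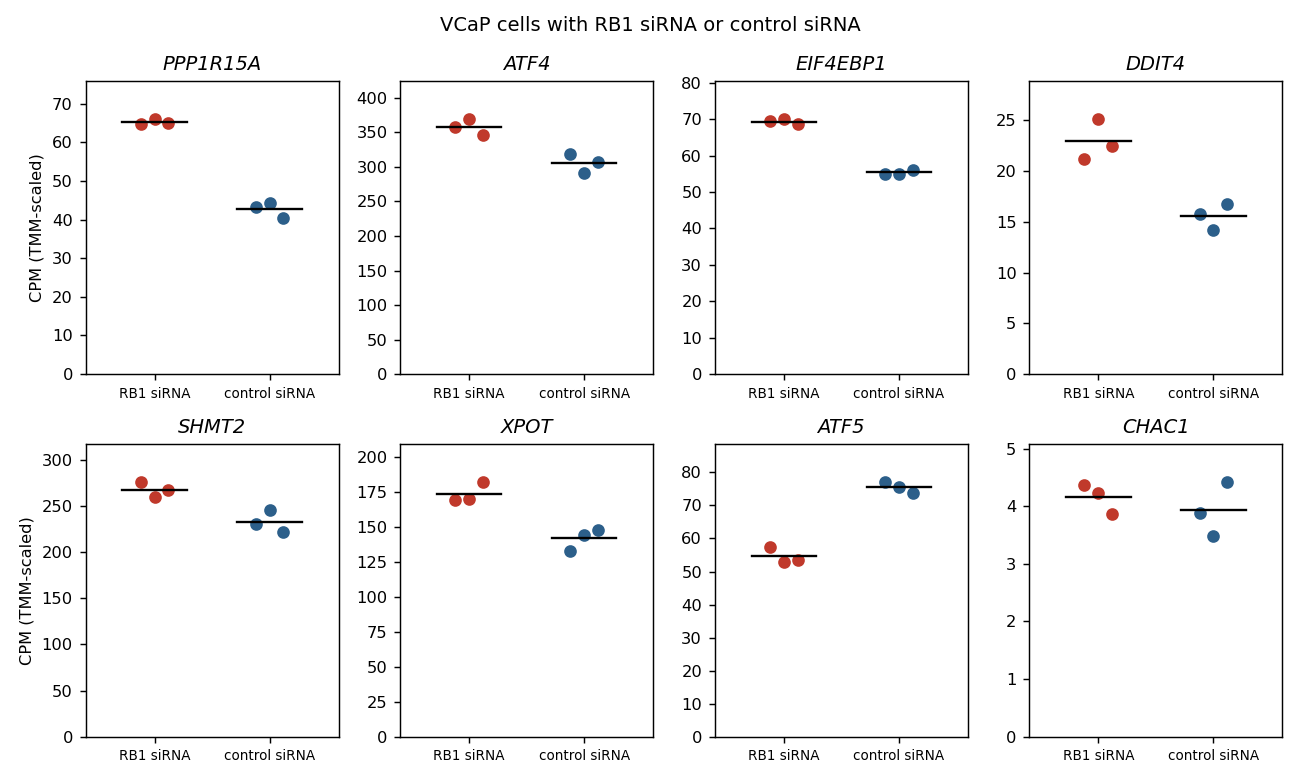
TMM-scaled CPM (vertical axis, from 0) of 8 members in VCaP cells, with 3 libraries per group as points and their mean as a line, RB1 siRNA left of control siRNA. PPP1R15A, ATF4, EIF4EBP1, DDIT4, SHMT2 and XPOT lie higher with RB1 siRNA without overlap, ATF5 lies lower, and CHAC1 overlaps at 3.49 to 4.42 CPM. Of all genes tested, 10.7% were higher and 10.6% lower without overlap.

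The VCaP and C4-2 libraries have none in common, so their calls can be set side by side. The members called higher with RB1 siRNA in VCaP and with doxycycline and DMSO in C4-2 were 7 (SESN2, ATF3, EIF4EBP1, VLDLR, PYCR1, TRIB3 and ATF4), which is 46.7% of 15 and 41.2% of 17. Of the 31 members tested in both experiments 51.6% were called higher in C4-2, so those called in VCaP were not called there at a higher share. Of all 13289 genes tested in both, 5.25% were called higher in C4-2, and of the 397 called higher in VCaP 19.6% were. The difference between the effects, RB1 siRNA in VCaP minus doxycycline in C4-2, was called positive in 2 members and called negative in 6, against 2.88% and 1.75% of 19976 genes (4.63% in all). PPP1R15A was the clearest positive one (0.85 ± 0.14, adjusted p = 7.1e-05) and NUPR1 the other (0.28 ± 0.08, adjusted p = 0.0319). The negative ones were CHAC1 (-1.05 ± 0.28, adjusted p = 0.0216), ATF5 (-0.63), PSPH (-0.58), PSAT1 (-0.45 ± 0.08, adjusted p = 0.000596), CEBPG (-0.45) and STC2 (-0.26). CHAC1 was not called when control siRNA replicate 1 or 3, or the third RB1 siRNA library, was left out (adjusted p up to 0.12), and STC2 was not called in 14 of 18 alternative fits. Cell line, agent, serum and time cannot be told apart in this difference. The count of 2 positive members changed when single libraries were left out, as did the calls over all genes, and the members' median difference was -0.09 to -0.04.

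GSK2879552 changed few members in C4-2 cells. With doxycycline, 3 of 32 rose and 0 fell, against 1.24% and 0.0923% of 18423 genes (1.34% in all), with a median of 0.07 for the members and 0 for all genes. STC2 was at 407 and 400 CPM with GSK2879552 and doxycycline, against 286 and 279 CPM with DMSO and doxycycline (log2 0.51 ± 0.06, adjusted p = 8.21e-05). VLDLR was at 56.1 and 53.2 CPM, against 39.0 and 40.8 CPM (log2 0.45 ± 0.08, adjusted p = 0.00603), and ATF3 was at 58.1 and 57.3 CPM, against 41.4 and 44.0 CPM (log2 0.43 ± 0.08, adjusted p = 0.0081). None of the 3 overlapped between groups, but 23.7% of all genes tested were also higher without overlap and 22.6% lower. The number of members called changed when single libraries were left out, as did that of all genes, and the members' median was 0.02 to 0.07.

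Without doxycycline, 1 member rose and 0 fell, against 0.619% and 0.0597% of genes. This was ATF3, at 43.1 and 39.7 CPM with GSK2879552, against 29.3 and 30.2 CPM with DMSO (log2 0.48 ± 0.09, adjusted p = 0.0109). At an unadjusted p under 0.05 there were 2 higher and 3 lower. The rise of ATF3 was not called without either DMSO library. The number of members called also changed with the library left out, as did that of all genes, and the members' median was -0.04 to 0.04. The difference between the inhibitor's effects with and without doxycycline was called in 0 members (0% and 0.0163% of genes; 3 positive and 1 negative at an unadjusted p under 0.05). STC2 came closest in edgeR (0.44 ± 0.08, adjusted p = 0.207). DESeq2 called 1 member, STC2, but it gave an adjusted p to only 922 genes, of which 4 were called higher and 3 lower. With single libraries left out the members' median difference was 0.02 to 0.08.

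In LNCaP cells, an androgen-dependent line, members stood higher with GSK2879552, in 1 library per condition with no replicate check. Of the 31 members that reached 100 counts over both libraries, 3 were at least 2-fold higher and 0 at least 2-fold lower, against 1.54% and 1.43% of 11955 such genes. The median log2 ratio was 0.31 for the members and -0.01 for all genes. The same libraries differed in other ways, with 0.22% of counts on mitochondrial genes with GSK2879552, against 0.336% with vehicle. VWF, a marker of endothelial cells, was at 5.77 CPM with GSK2879552, against 23 CPM with vehicle, the 4 stromal markers summed to 18.4 CPM, against 35.6 CPM, nearly all of it COL1A1, and the 3 leukocyte markers to 0.0759 CPM, against 0 CPM. DCN, CD3E and LYZ were at 0 in both libraries, and the part of these differences in the result was not tested. DDIT3 was at 70.4 CPM with GSK2879552, against 25.1 CPM with vehicle, a ratio of 2.81 (95% Clopper-Pearson interval 2.48 to 3.18, counting error only). TRIB3 was at 389 CPM, against 152 CPM, a ratio of 2.56 (2.43 to 2.7). CTH rested on fewer reads, 136 counts with GSK2879552 and 69 with vehicle, a ratio of 2.08 (1.54 to 2.82).

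Below the 2-fold limit, ATF3 and CEBPG each had a ratio of 1.84, PSAT1 one of 1.74 (352 CPM with GSK2879552, 202 CPM with vehicle), ASNS one of 1.72 (232 and 135 CPM) and CHAC1 one of 1.54 (43.6 and 28.4 CPM). ATF4 was at 379 CPM with GSK2879552, against 321 CPM with vehicle (1.18, interval 1.13 to 1.23). The interval lay above 1 in 21 members and below 1 in 4, PHGDH (0.801), PYCR1 (0.811), CBS (0.918) and EIF4EBP1 (0.921). Of all 11955 genes the interval lay above 1 in 26.7% and below 1 in 30.7%, against 67.7% and 12.9% of the members, and it covers counting error in 1 library each, not the spread between libraries. PSPH had a ratio of 1.24. ALDH1L2 had 20 counts with GSK2879552 and 10 with vehicle. Dose, time and line differ from the C4-2 experiment, where DDIT3 and TRIB3 were not called with GSK2879552 (DDIT3 at log2 0.22 with and -0.10 without doxycycline), so no comparison is made.

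**Figure D5:**
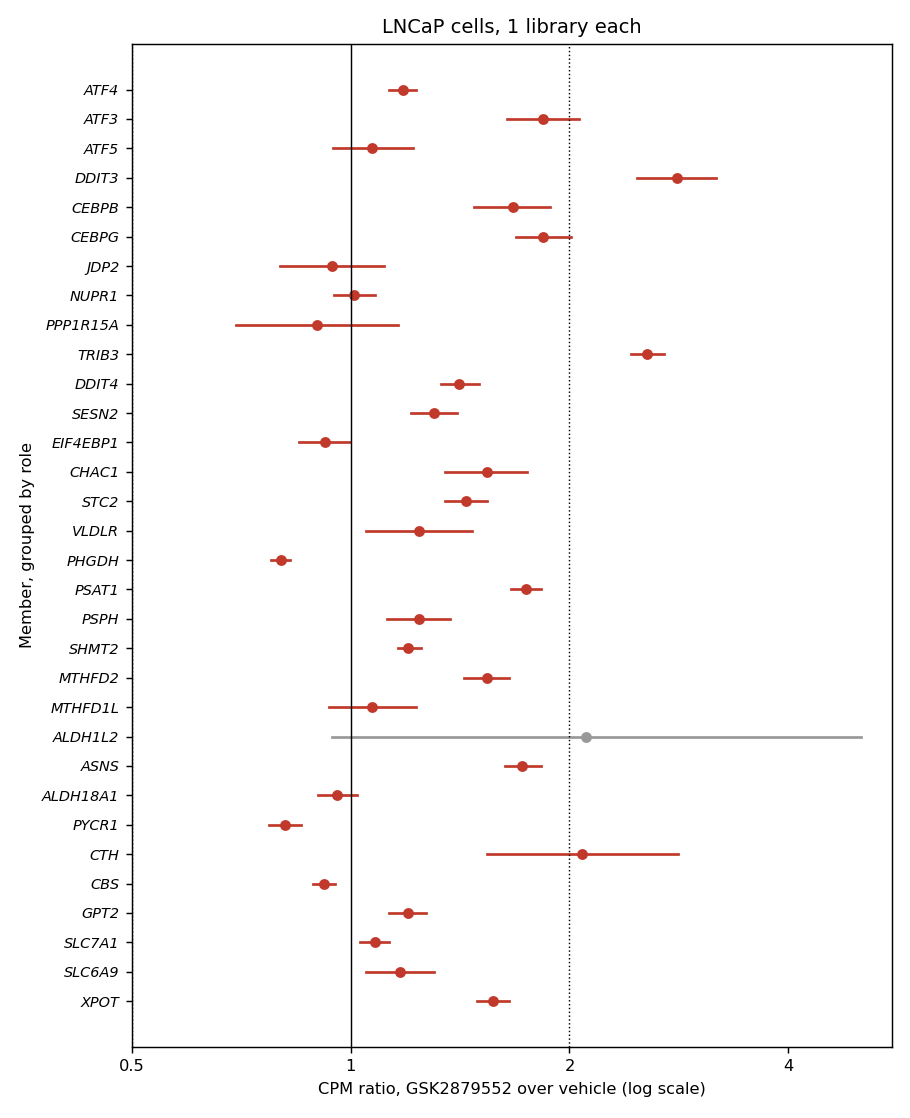
Ratio of TMM-scaled CPM in LNCaP cells, GSK2879552 over vehicle (horizontal log axis), for each member from top to bottom by role, with 95% Clopper-Pearson intervals of the counts; 1 library each. DDIT3 (2.81), TRIB3 (2.56) and CTH (2.08) lie past the dotted line at 2, PHGDH (0.801) and PYCR1 (0.811) lie left of 1, and ALDH1L2 in grey has too few counts.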

How the data were processed

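The values deposited by the authors are counts, whole numbers of reads per Ensembl gene with no normalization. The tools named, per the submitters' processing notes, are STAR 2.7.2, featureCounts 1.6.4 and FastQC 0.11.9, and the build is hg19 (GRCh37). Strand setting, annotation version and the treatment of reads with several alignments are not given in the sources used here. All 30 columns were mapped to samples. In the DHT and LNCaP tables both columns of a group share a library name and index, and their chi-square per degree of freedom, for genes of 10 counts or more, was 0.983 to 1.01, under the limit of 1.5, so they were summed as lanes of 1 library. In the other tables columns were replicates; their ratio was 1.13 to 1.39 in VCaP and 1.61 to 7.88 in C4-2 with GSK2879552, highest for GSK2879552 alone.

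Each table was fitted over all its genes with edgeR 4.0.16 (R 4.3.3) after filterByExpr and TMM scaling, by its quasi-likelihood F test, with calls at a Benjamini-Hochberg adjusted p under 0.05; the SE was taken as the size of the log2 change over the root of F. All 4 groups of the C4-2 experiment with GSK2879552 shared a fit, the 6 DHT libraries had additive terms for DHT and doxycycline level, and differences between experiments in joint fits with separate group means. Libraries without a replicate are given as ratios of TMM-scaled CPM, for genes that reach 100 counts over both libraries, with 95% Clopper-Pearson intervals. Alternatives were RLE size factors, no expression filter, DESeq2 1.42.0, leaving out each library, the replicate block, only the compared groups, and a 1.5-fold limit. Before use the edgeR fits were tested on simulated data with 2-fold changes in either direction, and smaller changes were not simulated.

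The members and lists were chosen with earlier results of these data known, and no list is tested as a set. By the rule for named genes, values per library are given for ATF4, DDIT3, CHAC1, TRIB3, ASNS and PSAT1 in the comparisons described at length. They are also given for up to 4 called members with the smallest p per direction. Related lists add up to 2 called genes per direction, and a list is said to be led by the genes with the smallest p. Other values, such as those of SESN2, PHGDH and VLDLR, were chosen after they were seen.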

Additional observations from a re-analysis of the deposited data

Results flagged for a closer look

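The effect of 3 days of doxycycline differed between the C4-2 experiments, by the test of the difference itself, in 11 members. All 11 effects were higher with DMSO in the experiment with GSK2879552 than in the DHT experiment, on the log2 scale by 1.21 for CHAC1, 0.70 for SESN2, 0.65 for ALDH1L2, 0.63 for ATF3, 0.61 for SLC6A9, 0.58 for CEBPG, 0.57 for PSPH, 0.55 for PSAT1, 0.48 for TRIB3, 0.46 for STC2 and 0.44 for MTHFD2. The part of serum and RNA kit, which differ between the experiments, was not tested.

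The effect of RB1 siRNA in VCaP minus that of doxycycline with DMSO in C4-2 differed in 8 members. It was 0.85 for PPP1R15A and 0.28 for NUPR1, and it was -1.05 for CHAC1, -0.63 for ATF5, -0.58 for PSPH, -0.45 for PSAT1, -0.45 for CEBPG and -0.26 for STC2. Line, agent, serum and time cannot be told apart here.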

How the results depend on the processing

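The counts of members called with DHT stayed at 24 lower and 2 or 3 higher under RLE size factors, no filter and DESeq2, and at 24 to 26 lower and 2 to 3 higher when 1 library was left out. With RB1 siRNA in VCaP DESeq2 called 6 higher, and leaving out 1 library gave 10 to 14. The matching calls over all genes were 171 of 7794 higher with DESeq2 and 260 to 431 with 1 library left out. With 1 library left out, doxycycline with DMSO gave 10 to 22 higher, doxycycline with GSK2879552 gave 14 to 24, GSK2879552 with doxycycline gave 1 to 5 higher and 0 to 1 lower, GSK2879552 without doxycycline gave 0 to 3 higher and 0 to 3 lower, and the interaction gave 0 to 1 in each direction. In the DHT experiment the same gave 0 to 1 higher and 0 to 4 lower at 3 days, 0 to 2 higher and 0 to 8 lower at 30 days, and 0 to 1 lower between these times. The difference between C4-2 experiments gave 4 to 18 higher, and that between VCaP and C4-2 gave 1 to 5 higher and 4 to 8 lower.

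With only the compared groups in the fit, GSK2879552 gave 6 higher and 2 lower with doxycycline and 0 higher without. With doxycycline that fit called 707 of all 18188 genes higher and 466 lower, against 229 and 17 of 18423 in the main fit. Without doxycycline it called 90 of 17400 higher and 3 lower. Without a filter the interaction gave 1 higher (STC2), with 7 of all 35528 genes called higher and 32 lower. DESeq2 also gave STC2, in the 922 genes to which it gave an adjusted p, with 4 called higher and 3 lower. In the DHT experiment without a filter, doxycycline gave 1 lower at 3 days (NUPR1) and 1 at 30 days. Of all 32953 genes 52 and 281 were lower there. For 30 days RLE size factors gave 1 lower and DESeq2 gave 0. RLE size factors and DESeq2 each gave 1 positive member for VCaP minus C4-2. Counts at a 1.5-fold limit are given without the share of all genes, so they cannot be set against it. At this limit LNCaP had 11 higher. DHT had 1 higher and 19 lower at 0 days, 2 and 21 at 3 days, and 1 and 22 at 30 days. The cause of these changes was not tested.

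Uncalled genes near 0 changed sign when 1 library was left out, on the log2 scale between -0.04 and 0.05 for DDIT3 with doxycycline and DMSO. In the DHT experiment at 3 days this was between -0.05 and 0.07 for TRIB3, -0.09 and 0.13 for ASNS, -0.17 and 0.01 for ATF4 and -0.17 and 0.04 for CHAC1, and at 30 days between -0.01 and 0.19 for ASNS, -0.11 and 0.01 for TRIB3, -0.19 and 0.02 for CHAC1 and -0.01 and 0.04 for PSAT1.

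The DHT fit pairs each DHT library with the vehicle library of its doxycycline level, and LNCaP, with 1 library per condition, allowed no pairing. Same-numbered libraries of VCaP correlated at 0.01, 0.01 and 0.03 and those of C4-2 at -0.12 to 0.04, so the numbers were not taken as pairs. With the replicate block the counts higher were 16 for VCaP, 15 and 16 for doxycycline with DMSO and with GSK2879552, and 1 for VCaP minus C4-2. With the numbers of the libraries given GSK2879552 alone exchanged, an alternative chosen after seeing the data, the block gave 26 for doxycycline with GSK2879552. That fit called 1693 of all 18423 genes higher and 1391 lower, against 832 and 590 in the main fit, and the members' median stayed at 0.37. Depth limits CHAC1, JDP2, CTH and ALDH1L2 in VCaP, where they had the fewest reads, and 1 library per condition limits LNCaP.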

Other observations

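Genes of other stress pathways also moved with DHT in C4-2-tet-shRB cells (edgeR, additive model over 6 libraries, where 49% of all genes tested were called). All 9 tested immediate early genes, which respond quickly to outside signals, were called, 7 higher and 2 lower. KLF6 (log2 1.87 ± 0.14) and the phosphatase DUSP1 (log2 1.43 ± 0.07) were higher, and the growth regulator MYC (log2 -0.92 ± 0.05) and FOS (log2 -1.14 ± 0.33) were lower. Of 15 p53 targets 3 rose and 8 fell, among them the death receptor genes TNFRSF10B (log2 0.79 ± 0.05) and FAS (log2 -1.14 ± 0.14). NRF2 targets were divided, 4 of 10 higher and 4 lower, with the haem-degrading enzyme HMOX1 at log2 -1.01 ± 0.06.

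CLGN, a testis chaperone gene on the list of other ATF4 targets, rose with GSK2879552 in C4-2 cells both with doxycycline (log2 1.05 ± 0.09, adjusted p = 4.91e-06) and without it (log2 0.90 ± 0.10, adjusted p = 0.000106, edgeR).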
